A study of Caenorhabditis elegans with 6 samples.

Results

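The genes described here are the neuropeptide genes of the *flp* and *nlp* series of *C. elegans*, taken as every row of the deposited values with a WormBase gene number from WBGene00001444 (*flp-1*) to WBGene00001466 (*flp-23*) or from WBGene00003739 (*nlp-1*) to WBGene00003764 (*nlp-26*). Of the 49 numbers in these runs, 47 were present among the 17397 genes of the arrays, 22 in the *flp* run and 25 in the *nlp* run. They were measured in 3 populations of the *dcap-1* strain carrying the reduction-of-function allele *tm3163*, hereafter *dcap-1(rf)*, and in 3 populations of wild-type N2 worms (wt). All 6 populations were cultures of whole adult worms on day 9 of adulthood, kept at 20 °C on killed OP50 bacteria with 10 µg/mL FUDR, a drug that stops progeny from growing, and each gave RNA from 200 to 300 worms to 1 Affymetrix *C. elegans* Genome Array. DCAP-1 is a subunit of the complex that removes the 5′ cap of mRNAs, and the comparison asks how these transcripts stand in mid-aged worms in which decapping is impaired. The allele is present in every tissue. The RNA came from whole worms, so the arrays do not separate neurons from the rest of the worm.

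Neuropeptide genes encode precursor proteins that are cut at basic residues, trimmed, often amidated at the C-terminus and released from dense-core vesicles. The *flp* genes encode FMRFamide-like peptides, which end in an amidated arginine-phenylalanine pair and act mostly through G protein-coupled receptors on feeding, locomotion, egg laying and sleep. The *nlp* genes are a mixed group of neuropeptide-like precursors, some of which act in neurons while others are made in the epidermis or the intestine. In a whole worm the transcripts of members made in neurons come from few cells. For any member, fewer cells of a type and less RNA per cell cannot be told apart.

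Names could be given to 13 of the 47 members. The supplementary tables of the study pair 11 of them with their identifiers, and the ends of the runs give *flp-23* and *nlp-1*. Those tables, which are held here in part, name 1998 genes, of which 1946 have a log2 fold change above 0 in these values and 52 below it. All 11 member names taken from them belong to members with a log2 fold change above 0, so that the named members are not a fair sample of the runs. The other 34 are given by their WormBase number, without a role; of the 32 of them that were tested, 27 had a log2 fold change below 0. Values are log2 expression values on the scale of the robust multi-array average (RMA), in which a difference of 1 is a doubling, and a value of one gene cannot be set against that of another. Errors are SDs over the 3 arrays of a strain unless a standard error (SE) is named.

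*dcap-1* itself had 4.50, 4.52 and 4.65 on the *dcap-1(rf)* arrays and 5.44, 5.30 and 5.26 on the wt arrays, a log2 fold change of -0.77 (SE 0.08, adjusted p = 0.00469 in the limma fit, after the adjustment of Benjamini and Hochberg). The median of all genes lay between 2.18 and 2.24 on every array, and Pearson's r between 2 arrays, across genes, which are not independent replicates, lay between 0.990 and 0.997. Of the 13047 genes that passed the filter on low averages, 211 were differentially expressed at an adjusted p under 0.05, 190 of them higher and 21 lower in *dcap-1(rf)*. With 3 arrays against 3 an exact permutation test cannot go below p = 0.10, so single genes were judged by the limma fit across all genes. Markers of intestine (*elt-2*, *act-5*), muscle (*unc-54*), epidermis (*col-19*) and neurons (*snb-1*) all passed the filter.

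None of the 44 *flp* and *nlp* genes that passed the filter was differentially expressed between *dcap-1(rf)* and wt. The count was 0 of 44 against 1.62% of all genes tested (1.46% higher and 0.161% lower), a share that comes to less than 1 gene in a group of this size. Without adjustment, 7 of the 44 had p under 0.05 in limma (15.9%, against 13.8% of all genes tested), and the smallest adjusted p was 0.163. The *dcap-1(rf)* and wt arrays did not overlap in 8 of the 44 (18.2%), 4 with *dcap-1(rf)* above and 4 below, against 18.6% of all genes tested (8.93% above and 9.67% below). Each of these counts stood close to its background. The median log2 fold change of the members was -0.05, with quartiles of -0.13 and 0.05 and extremes of -0.60 and 0.56. Over all genes tested the median was -0.02 and the quartiles -0.11 and 0.08. In 35 of the 44 the log2 fold change was smaller than 0.25 in size.

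The SE of the log2 fold changes had a median of 0.13 and ran from 0.07 to 0.34. In 42 of the 44 genes the 95% interval lay wholly within a doubling or a halving of the level, and in the other 2, both in the *nlp* run, it reached a halving. All 21 *flp* genes tested were among the 42. These intervals apply to array values, and they include members with low averages, down to just above the filter. When the lowest 50% of genes were removed, 29 members were left, and *nlp-4*, *nlp-25* and *nlp-26* were among those removed. The smallest log2 fold change called in any gene on these arrays was 0.42 in size.

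**Figure D1:**
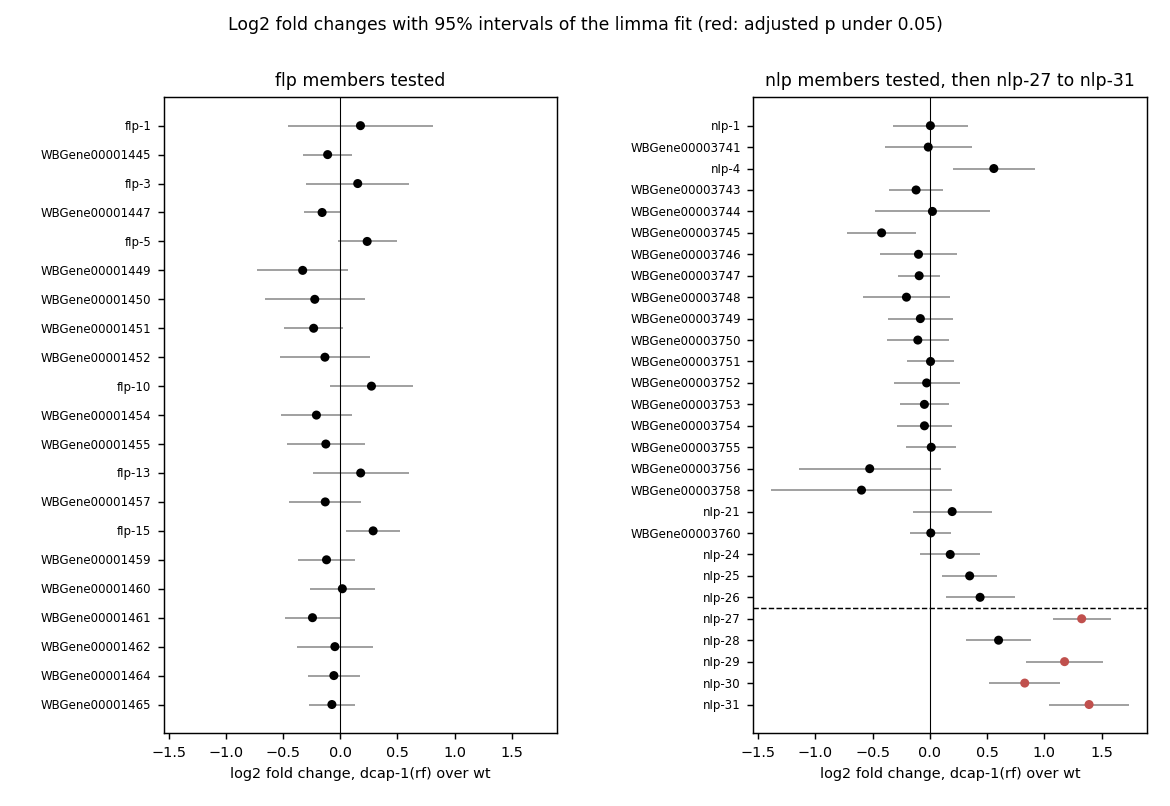
Log2 fold changes (x axis, *dcap-1(rf)* over wt) with 95% intervals of the limma fit for the 21 *flp* and 23 *nlp* genes tested, in order of WormBase number, and below the dashed line for *nlp-27* to *nlp-31*, which lie outside the runs; red points have an adjusted p under 0.05. All members lie between -0.60 and 0.56 and none is red, whereas 4 of the 5 genes below the line are red.

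Among the *flp* genes, 7 of the 21 tested had a log2 fold change above 0 and 14 below it, with a median of -0.11. Without *dcap-1(rf)* replicate 3, the lowest mutant array in most members, 11 were above 0 and 10 below, with a median of 0.01. The 7 above 0 included the 6 *flp* genes tested that carry a name, which follows from where the names come from. *flp-15*, on chromosome III from 13663400 to 13667839 of WBcel235, had 3.33, 3.51 and 3.43 on the *dcap-1(rf)* arrays and 3.28, 3.16 and 2.96 on the wt arrays. Every *dcap-1(rf)* array was above every wt array, but the difference was small beside the adjustment over all genes (log2 fold change 0.29, SE 0.10, adjusted p = 0.269 from limma). It was the only *flp* gene whose *dcap-1(rf)* arrays all lay above wt.

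*flp-10* encodes a peptide that inhibits egg laying through the receptor EGL-6, together with *flp-17*. It had 3.49, 3.43 and 3.12 on the *dcap-1(rf)* arrays and 3.04, 2.83 and 3.36 on the wt arrays. The strains overlapped, and the spread was large in both of them (log2 fold change 0.27, SE 0.15, adjusted p = 0.487 from limma). With wt replicate 2 omitted its log2 fold change was 0.15, and with wt replicate 3 omitted 0.42. *flp-5* had 3.86, 3.57 and 3.51 in *dcap-1(rf)* and 3.34, 3.36 and 3.53 in wt, a log2 fold change of 0.24 (SE 0.11, adjusted p = 0.401 from limma). Its *dcap-1(rf)* replicate 3 fell just inside the range of wt.

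*flp-1*, *flp-3* and *flp-13* shared a split within the mutant. *flp-1*, whose peptides act on locomotion, had 4.54 and 4.48 on *dcap-1(rf)* replicates 1 and 2, but 3.50 on replicate 3, and 4.16, 4.11 and 3.73 on the wt arrays. Its log2 fold change of 0.18 (SE 0.27, adjusted p = 0.813 from limma) therefore averaged a pair of arrays above all of wt and one below all of wt. Without *dcap-1(rf)* replicate 3 it was 0.51 (adjusted p = 0.156 from limma), and without *dcap-1(rf)* replicate 1 it was -0.0067. *flp-3* had 3.82, 3.79 and 3.07 in *dcap-1(rf)* and 3.39, 3.50 and 3.33 in wt. *flp-13*, whose peptides from the ALA neuron bring on sleep after cellular stress, had 3.51, 3.45 and 2.83 in *dcap-1(rf)* and 3.15, 3.18 and 2.92 in wt. In both, replicates 1 and 2 of the mutant were the highest and replicate 3 the lowest of the 6 arrays. The log2 fold changes were 0.15 for *flp-3* and 0.18 for *flp-13*, and without *dcap-1(rf)* replicate 3 they were 0.40 and 0.39 (adjusted p = 0.0907 and 0.145 from limma).

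In 3 *flp* genes without a name every *dcap-1(rf)* array lay below every wt array. WBGene00001449 had 4.62, 4.61 and 3.98 in *dcap-1(rf)* and 4.70, 4.69 and 4.80 in wt, the largest decrease of the run (log2 fold change -0.33, SE 0.17, adjusted p = 0.4499 from limma). Most of it came from 1 array, since the log2 fold change was -0.11 without *dcap-1(rf)* replicate 3. WBGene00001461 had 3.25, 3.23 and 2.91 in *dcap-1(rf)* and 3.37, 3.39 and 3.35 in wt (log2 fold change -0.24, adjusted p = 0.361 from limma). Its replicate 3 was again the lowest of the 6 arrays, and the log2 fold change without it was -0.13. WBGene00001447 differed from these in that replicate 3 was the highest of its mutant arrays: it had 2.24, 2.27 and 2.31 in *dcap-1(rf)* and 2.46, 2.42 and 2.41 in wt, a small difference with a small spread (log2 fold change -0.16, SE 0.07, adjusted p = 0.360 from limma). *flp-23*, the last of the run, had a mean of 1.06 ± 0.25 in *dcap-1(rf)* and 1.16 ± 0.08 in wt (SD, n = 3 each) and was among the 3 members that the filter on low averages removed, so it was not tested.

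Among the *nlp* genes, 10 of the 23 tested had a log2 fold change above 0 and 13 below it, with a median of -0.03. Without *dcap-1(rf)* replicate 3 the same 23 genes had 16 above 0, 7 below and a median of 0.05, and with a filter that removed the lowest 50% of all genes the median of the *nlp* genes left was -0.10. *nlp-4*, on chromosome I from 10517321 to 10518055, had the largest increase of all members. Its values were 2.24, 2.70 and 2.40 on the *dcap-1(rf)* arrays and 1.66, 2.13 and 1.87 on the wt arrays. The strains did not overlap, and the log2 fold change of 0.56 (SE 0.15) exceeded the SD of either strain (0.23 in *dcap-1(rf)*, 0.24 in wt), yet it missed the threshold over all genes (adjusted p = 0.163 from limma). With the replicate number of the labels as a block the same log2 fold change had an adjusted p of 0.0288 from limma.

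*nlp-25* and *nlp-26* are neighbours on chromosome V, from 19606180 to 19608419 and from 19613461 to 19614534. *nlp-25* had 1.86, 1.71 and 1.52 in *dcap-1(rf)* and 1.45, 1.35 and 1.26 in wt, a log2 fold change of 0.35 (SE 0.10, adjusted p = 0.200 from limma). *nlp-26* had 1.69, 2.12 and 1.69 in *dcap-1(rf)* and 1.49, 1.41 and 1.28 in wt, a log2 fold change of 0.44 (SE 0.13, adjusted p = 0.194 from limma). In both, all mutant arrays lay above all wt arrays. Their averages over the 6 arrays, 1.52 and 1.61, were just above the 1.33 below which genes were removed, a range in which the deposited values carry no call of detection. *nlp-24*, which encodes opioid-like peptides that act on feeding during starvation, had 2.70, 2.78 and 2.81 in *dcap-1(rf)* and 2.35, 2.64 and 2.76 in wt (log2 fold change 0.18, adjusted p = 0.532 from limma), with 1 mutant array inside the range of wt.

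*nlp-1*, made in the AWC olfactory neurons, where it takes part in olfactory adaptation, had 2.98, 3.09 and 2.53 in *dcap-1(rf)* and 2.79, 2.90 and 2.90 in wt. The strain means were close, 2.87 in *dcap-1(rf)* and 2.86 in wt, but the mutant arrays lay on either side of wt, with replicate 3 the lowest. *nlp-21* had 2.07, 2.14 and 1.62 in *dcap-1(rf)* and 1.62, 1.72 and 1.91 in wt (log2 fold change 0.19, adjusted p = 0.604 from limma). There too mutant replicates 1 and 2 were above wt, and replicate 3 was at the bottom of its range.

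WBGene00003758 and WBGene00003756 had the largest decreases of all members and the largest spread. WBGene00003758 had 4.02, 3.85 and 2.59 in *dcap-1(rf)* and 4.21, 4.03 and 4.002 in wt, a log2 fold change of -0.60 (SE 0.34, adjusted p = 0.487 from limma). WBGene00003756 had 3.07, 3.36 and 2.22 in *dcap-1(rf)* and 3.56, 3.42 and 3.25 in wt, a log2 fold change of -0.53 (SE 0.27, adjusted p = 0.439 from limma). In each, mutant replicate 3 stood over 0.5 below every other array, and the strains overlapped. Without *dcap-1(rf)* replicate 3 their log2 fold changes were -0.15 and -0.19. WBGene00003745 was lower on all mutant arrays: it had 2.69, 2.60 and 2.35 in *dcap-1(rf)* and 2.80, 2.93 and 3.19 in wt (log2 fold change -0.42, SE 0.13, adjusted p = 0.206 from limma), and with any 1 array left out the log2 fold change stayed between -0.51 and -0.31.

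**Figure D2:**
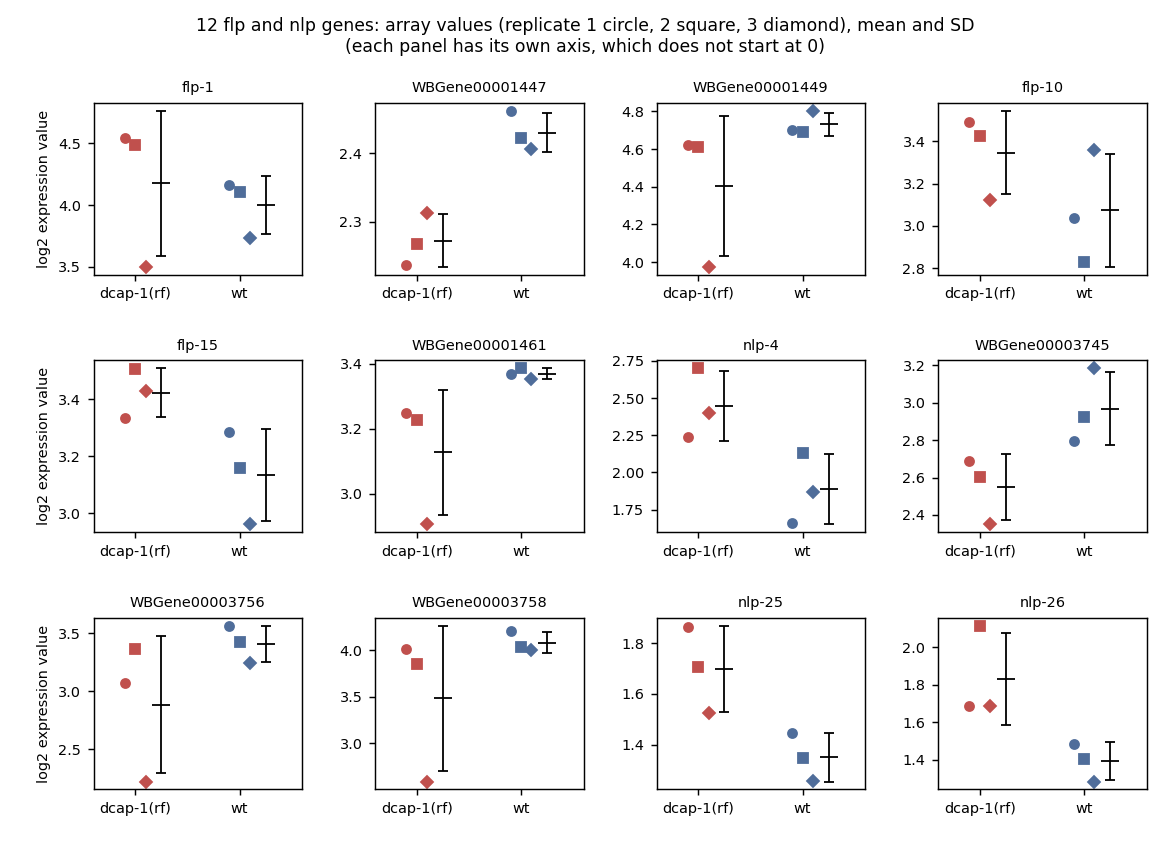
Log2 expression values (y axis, a separate scale in each panel) of 12 *flp* and *nlp* genes on the 3 *dcap-1(rf)* arrays (left, red) and the 3 wt arrays (right, blue), with the mean and SD of each strain. Replicate 3 of *dcap-1(rf)*, the diamond, is the lowest mutant point in *flp-1*, *flp-10*, WBGene00001449, WBGene00001461, WBGene00003745, WBGene00003756, WBGene00003758 and *nlp-25*; the strains do not overlap in *flp-15*, *nlp-4*, *nlp-25*, *nlp-26*, WBGene00001447, WBGene00001449, WBGene00001461 and WBGene00003745.

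Most members had their lowest level on *dcap-1(rf)* replicate 3. It was the lowest of the 6 arrays in 31 of the 44 members (70.5%), 15 of 21 *flp* and 16 of 23 *nlp* genes, against 19.4% of all genes tested. Relative to the wt mean of each gene, the median over the members was 0.07, 0.02 and -0.23 on *dcap-1(rf)* replicates 1, 2 and 3, and 0.01, 0.02 and -0.03 on wt replicates 1, 2 and 3. Over all genes tested the same median was -0.02, -0.01 and -0.01 on the *dcap-1(rf)* arrays and lay between -0.01 and 0.01 on the wt arrays, so that replicate 3 was not shifted as a whole. The *flp* and *nlp* genes moved alike, with medians of -0.25 and -0.19 on that array. It lay over 0.5 below the wt mean in 6 members (13.6%, against 3.02% of all genes tested), while replicates 1 and 2 did so in 0. On *dcap-1(rf)* replicate 3, 37 of the 44 members were below the wt mean, against 6988 of the 13047 genes tested. Wt replicate 3 was also below it in 30 of the 44, by a smaller amount, against 6087 of the 13047. The SD over the *dcap-1(rf)* arrays exceeded that over the wt arrays in 34 of the 44 members (77.3%, against 53.4% of all genes tested), with a median SD of 0.20 in *dcap-1(rf)* and 0.10 in wt, where all genes tested had 0.11 in *dcap-1(rf)* and 0.10 in wt.

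**Figure D3:**
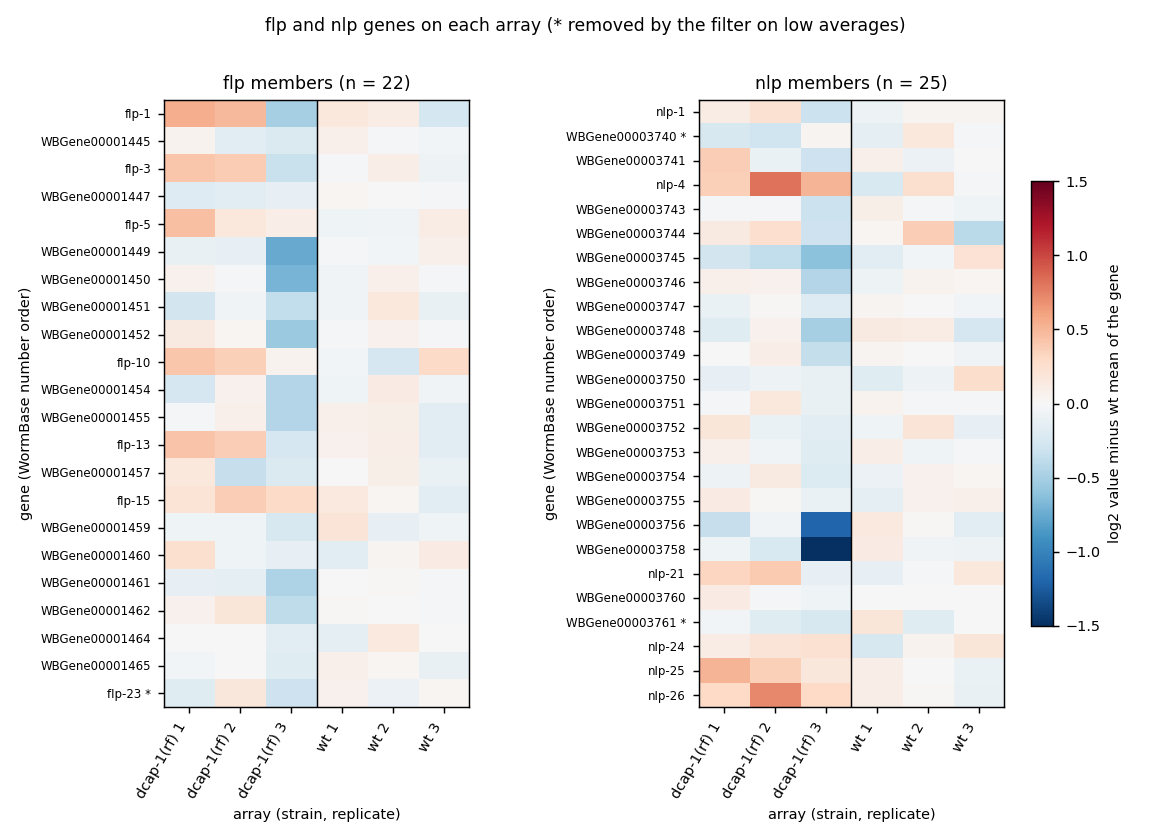
Log2 value of each of the 22 *flp* (left) and 25 *nlp* (right) genes minus the wt mean of the gene (colour), on the 3 *dcap-1(rf)* arrays and the 3 wt arrays; stars mark the 3 genes removed by the filter on low averages. The column of *dcap-1(rf)* replicate 3 is blue in most rows, and *flp-5*, *flp-10*, *flp-15*, *nlp-4*, *nlp-24*, *nlp-25* and *nlp-26* are above the wt mean in all 3 columns of *dcap-1(rf)*.

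Replicate 3 is singled out here because it was the lowest mutant array in most members. Leaving it out therefore raised most log2 fold changes by construction, and no call changed. With all arrays 17 of 44 members had a log2 fold change above 0 and 27 below it (61.4% below, against 55.4% of all genes tested). Without *dcap-1(rf)* replicate 3, 27 were above 0 and 18 below among 45 members tested, and the median log2 fold change was 0.04 in place of -0.05, while that of all genes stayed at -0.02. In 10 members, all of them below 0 with the full set, the sign changed. No member was called in that fit either, and the smallest adjusted p was 0.0907, that of *flp-3*. An unadjusted p under 0.05 in limma was found in 11, a count without the share over all genes of that fit beside it.

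**Figure D4:**
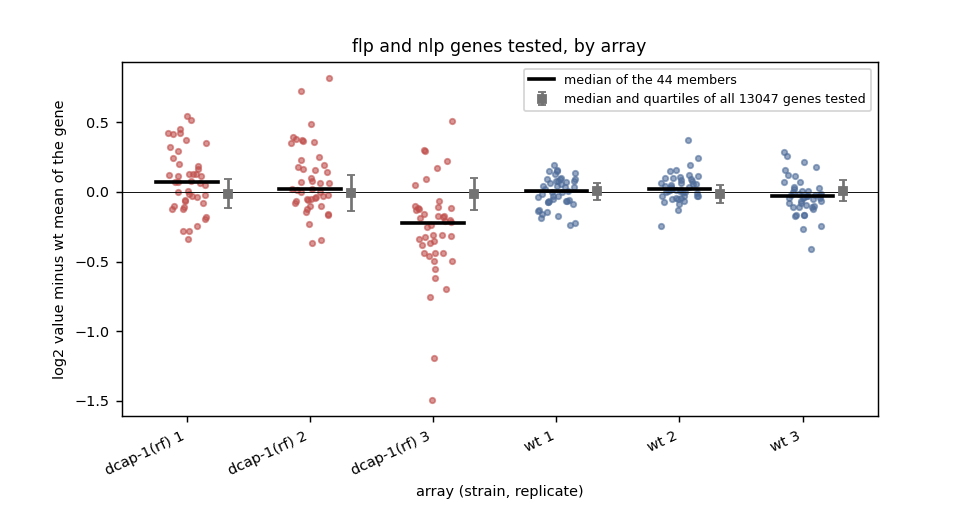
Log2 value minus the wt mean of the gene (y axis) for the 44 *flp* and *nlp* genes tested, on each array (x axis), with the median of the members (black bar) and the median and quartiles of all 13047 genes tested (grey). The bar lies at -0.23 on *dcap-1(rf)* replicate 3 and between -0.03 and 0.07 on the other arrays.

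The members that did not follow this pattern were few. In 7 of the 44, replicate 3 was not the lowest of the mutant arrays, among them *flp-15*, *nlp-4*, *nlp-24* and *nlp-26*. These had values of 3.43, 2.40, 2.81 and 1.69 on replicate 3, each above the highest wt array. Replicate 3 was also above the wt mean in 7 members, the same 4 with *flp-5*, *flp-10* and *nlp-25*, all of them members with a name.

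Some markers of muscle and epidermis were lower on replicate 3 than on mutant replicates 1 and 2, within the limits of the names at hand. Not all of them were below wt there. Nearly all identifiers belong to genes with a log2 fold change above 0, so that levels above wt among the markers below are in large part set by which genes have a name, and the other genes of each list were not seen. The 4 of 7 muscle markers with an identifier, *myo-3*, *unc-54*, *unc-15* and *unc-22*, had a median of 0.33, 0.55 and -0.11 relative to the wt mean on *dcap-1(rf)* replicates 1, 2 and 3, and all 4 were above it on replicates 1 and 2 and below it on replicate 3. For *unc-15* and *unc-22* replicate 3 was the lowest array of all, but *unc-54* (4.68) stayed above wt replicate 1 (4.59). There *myo-3* had 3.01, the same as on wt replicates 2 and 3. The 5 of 13 intestine markers had 0.25, 0.23 and 0.36 on the same arrays, with 4 of the 5 above the wt mean on each of them. Of these, *ifb-2* and *vha-6* rose (log2 fold changes 0.74 and 0.64, adjusted p = 0.0296 and 0.0123 from limma), and *vit-3*, a vitellogenin, had a log2 fold change of -0.35 that missed the threshold (adjusted p = 0.114). The epidermis markers *col-19* and *elt-3*, 2 of 8, had a median of 0.57, 0.89 and 0.05. On replicate 3 *col-19* had 5.37, above its wt arrays (5.08, 5.10 and 5.08). There *elt-3* had 3.09, above wt replicate 3 (2.91). Of the neuron markers 2 of 15 had an identifier. *snb-1*, the synaptobrevin of synaptic vesicles, had 7.53, 7.40 and 7.47 in *dcap-1(rf)* and 7.36, 7.27 and 7.31 in wt, and *unc-64*, the syntaxin, had 2.92, 3.02 and 3.28 in *dcap-1(rf)* and 2.66, 2.92 and 2.92 in wt. Neither was low on replicate 3, but a marker low there is less likely to have an identifier. These 2 therefore do not show where the other neuron markers stood on that array. The part of muscle, intestine, epidermis or neuron content in the members' values was not tested.

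A clear difference was seen in genes that follow *nlp-26* in number, which fall outside the membership rule. It could be looked for only in genes with an identifier, which 5 of the 8 antimicrobial *nlp* genes had. Genes numbered next to the *flp* run were not examined. *nlp-27* to *nlp-31* lie side by side on chromosome V between 3980055 and 3989770, and *nlp-29* and *nlp-31* are known as antimicrobial peptides of the epidermis that fungal infection and wounding induce. The names of all 5 come from the study's tables as held here, where nearly all genes have a log2 fold change above 0. Their direction is therefore not independent evidence. *nlp-31* had 6.93, 6.47 and 6.38 in *dcap-1(rf)* and 5.18, 5.33 and 5.10 in wt, a log2 fold change of 1.39 (SE 0.15, adjusted p = 0.00469 from limma). *nlp-27* had 6.00, 5.85 and 5.72 in *dcap-1(rf)* and 4.44, 4.71 and 4.44 in wt, a log2 fold change of 1.33 (SE 0.11, adjusted p = 0.00169 from limma). In both, the gap between the strains was several times the SD of either.

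*nlp-29* had 6.64, 6.30 and 6.04 in *dcap-1(rf)* and 5.08, 5.20 and 5.16 in wt (log2 fold change 1.18, adjusted p = 0.00843 from limma), and *nlp-30* had 4.25, 4.07 and 4.09 in *dcap-1(rf)* and 3.31, 3.57 and 3.05 in wt (log2 fold change 0.83, adjusted p = 0.0255 from limma). *nlp-28* had 6.28, 6.07 and 5.79 in *dcap-1(rf)* and 5.40, 5.49 and 5.45 in wt, which missed the threshold (log2 fold change 0.60, SE 0.12, adjusted p = 0.0658 from limma). Thus 4 of these 5 genes were called higher, against 1.46% of all genes tested. Every mutant array of all 5 was above every wt array, against 8.93% of all genes tested. They are the 5 of 8 antimicrobial *nlp* genes with an identifier, and nearly all identifiers belong to genes with a log2 fold change above 0. The counts therefore do not describe the whole list. Without wt replicate 1 only 2 of the 5 were called, and *nlp-28* was called without *dcap-1(rf)* replicate 3 (adjusted p = 0.0150 from limma). With single arrays omitted in turn, *nlp-30* kept its call in 2 of 6 fits and *nlp-29* in 4 of 6. These genes have close sequences, and signal shared between them was not separated. Whether they differ from *nlp-24*, *nlp-25* and *nlp-26* in their response was not tested.

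**Figure D5:**
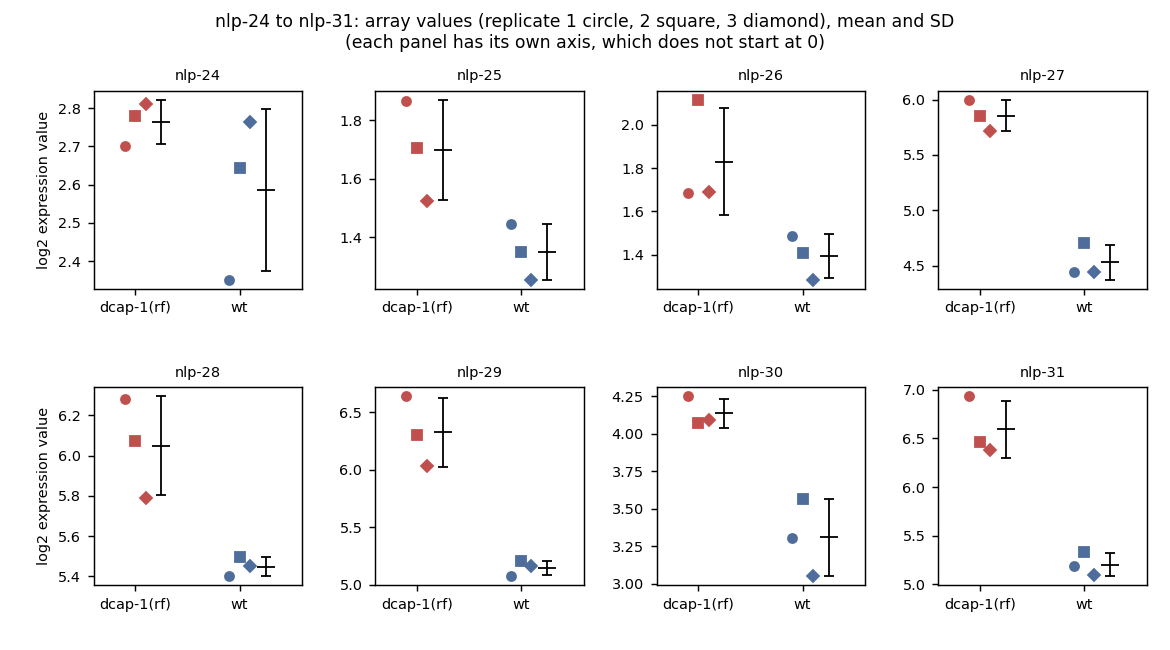
Log2 expression values (y axis, a separate scale in each panel) of *nlp-24* to *nlp-31* on the 3 *dcap-1(rf)* arrays (left, red) and the 3 wt arrays (right, blue), with the mean and SD of each strain. The strains do not overlap from *nlp-25* to *nlp-31*, and the log2 fold changes are 0.18, 0.35 and 0.44 for *nlp-24*, *nlp-25* and *nlp-26* and between 0.60 and 1.39 for the other 5.

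The machinery that makes, releases, senses and degrades neuropeptides could be followed only in single genes. An identifier was at hand for 1 of 11 genes of peptide processing, 1 of 13 of dense-core vesicles, 1 neuropeptide receptor, 2 of 26 neprilysin peptidases and 9 of 66 further neuropeptide genes, 5 of which were *nlp-27* to *nlp-31*. With so few, and those drawn mostly from genes with a log2 fold change above 0, no list of this machinery was counted or summarized. *ric-19*, which acts in the maturation of dense-core vesicles, had 3.38, 3.47 and 3.79 in *dcap-1(rf)* and 3.07, 3.22 and 3.00 in wt. All its mutant arrays were above wt, and it was not called (log2 fold change 0.45, SE 0.12, adjusted p = 0.149 from limma).

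*pamn-1*, which encodes an enzyme of C-terminal amidation, had 2.50 ± 0.21 in *dcap-1(rf)* and 2.30 ± 0.14 in wt, and *pdfr-1*, the receptor of the PDF peptides, had 2.99 ± 0.21 in *dcap-1(rf)* and 2.77 ± 0.17 in wt (SD, n = 3 each). The neprilysins *nep-1* and *nep-23* had log2 fold changes of 0.18 and 0.29. None of these was called. Of the further neuropeptide genes, *nlp-40*, whose peptide is released by the intestine to time defecation, had 7.66 ± 0.06 in *dcap-1(rf)* and 7.46 ± 0.17 in wt (SD, n = 3 each), and *flp-32*, *nlp-61* and *nlp-80* had log2 fold changes of 0.25, 0.22 and 0.49 with adjusted p between 0.303 and 0.651 from limma. On the *dcap-1(rf)* arrays *flp-32* had 1.79, 1.91 and 1.48, *nlp-61* 3.89, 4.39 and 3.74, and *nlp-80* 3.79, 3.80 and 3.17. In each, replicate 3 was the lowest mutant array but within the range of wt. In *nlp-40*, with 7.59, 7.66 and 7.72, it was the highest.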

How the data were processed

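Total RNA of each population was hybridized on an array of its own. The authors deposited log2 expression values, made with RMA and the BrainArray ENSG chip description file (version 21.0.0) after quality control, with 1 value per gene and array. Their methods also name surrogate variable analysis, and whether the deposited log2 values carry that correction is not stated. The submitters' processing notes name R 3.3.0 and WBcel235. Neither counts nor calls of detection come with the values, and precision is limited by the number of arrays.

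Differences between the strains were tested with limma 3.58.1 (R 4.3.3). The linear model held strain alone and was fitted to 17397 genes. The 25% of genes with the lowest average were then dropped, variances were moderated over the 13047 left, and p-values were adjusted over these by the method of Benjamini and Hochberg, with a threshold of 0.05. SEs are moderated. On simulated data with 200 changed genes, 86.0% of genes raised by 1 and 91.9% of those lowered by 1 that passed the filter were called, along with 10 unchanged genes, and the filter itself removed 13 of the 50 genes lowered by 1. The simulated noise was independent between genes, with the same SD in both strains. The changed genes were drawn from all genes above the filter. These rates do not apply to the members, whose median SE was 0.126 against 0.096 for all genes tested. Python 3.11.15, pandas 2.3.3 and matplotlib 3.10.9 were used for tables and plots.

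The members, the gene lists and the rule for named genes were chosen with earlier results of these data known. Members described array by array are those that were called, those whose strains did not overlap, the 5 largest log2 fold changes in each direction and the 3 largest SDs; *flp-3*, *flp-5*, *flp-13*, *nlp-1*, *nlp-21* and *nlp-24* were added after their values were seen, because they are the other named members tested. No list of markers or pathway genes had an identifier for 80% of its genes, so none was summarized as a list, and the medians given for muscle, intestine and epidermis cover only the markers with an identifier. The lists of transmitter neurons (0 of 15), germline (0 of 11) and glia (0 of 6) had no identifier, and epidermis had 2 of 8, sperm 1 of 8 (*spe-11*, log2 fold change 0.25) and antimicrobial *nlp* genes 5 of 8. Positions are those of RefSeq for WBcel235. Identical values (9 decimals) on 2 or more arrays occur in 8 of the 47 members and in 4004 genes in all. The fit was repeated without the filter and with a filter of 50%. Other repeats used a variance trend with robust moderation, 1 or 2 residual components as covariates in place of surrogate variables, centring on array medians, quantile normalization, weights per array, and a block for the replicate number. Each array was also omitted in turn. The study's own fold changes and p-values were not used.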

Additional observations from a re-analysis of the deposited data

How the results depend on the processing

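No member was called in the alternatives other than 2: with the replicate number as a block 1 member was called higher (*nlp-4*, adjusted p = 0.0288, in a range up to 0.184 over the alternatives with all arrays, from limma) and with 2 components of the residuals 1 was called lower (WBGene00003756, adjusted p = 0.0451, in a range up to 0.466, from limma). The replicate numbers were not used as a block in the main fit because the methods of the study name none. Same-numbered arrays correlated by 0.06, 0.10 and 0.14 in their deviations from the strain means. The other pairs of a mutant and a wt array lay between -0.12 and 0.04, so each mutant array correlated best with the wt array of its own number. Whether the numbers mark a shared batch was not tested. The only change of sign among the members described array by array under the rule was that of *flp-1*, with a log2 fold change of -0.0067 when *dcap-1(rf)* replicate 1 was omitted and 0.51 when replicate 3 was.

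Over all genes tested, the upregulated genes numbered 327 with 2 components, and the downregulated genes 54 with 1 component, 84 with 2 components, 35 after median centring of the arrays, 35 with weights per array, 34 with quantile-normalized values and 33 with the replicate block. With 1 array left out the upregulated genes numbered between 75 and 280, the downregulated genes between 9 and 26, and the called genes of *nlp-27* to *nlp-31* between 2 and 5. *nlp-28* was called in 5 of the 9 alternatives with all arrays. Removing the lowest 50% of genes left 29 members to test. Strains that did not overlap were found in 5 to 17 members over the settings, the highest number without *dcap-1(rf)* replicate 3. With 1 array left out, strains separate more easily by design, so these counts cannot be set against those of the full set. The number of members with unadjusted p under 0.05 was 3 after removal of the lowest 50% of genes, 11 with 1 component and 12 with 2 components. The shares over all genes in these settings are not at hand, so neither kind of count is read as a result about the members. The causes were not tested.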
